A study of Mus musculus with 8 samples.

Results

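The probes described here were those whose level was lower in KO than in WT thymocytes in both sorted fractions of a mouse bead array experiment. They were chosen from the authors' processed log2 values: the mean of the KO arrays less that of the WT arrays had to be at or below -0.5, a fold of 1.41, in Foxp3+ cells and again in Foxp3- cells. The rule took 59 of 14942 probes, or 0.395%. Of these, 57 were paired with a gene and stood for 50 genes, and the other 2, ILMN_1231805 and ILMN_2905386, were not. The arrays were hybridised with total RNA of thymic T cells in 4 groups of 2 arrays each: CD4+Foxp3+ cells of KO mice, CD4+Foxp3+ cells of WT mice, CD4SP Foxp3- cells of KO mice and CD4SP Foxp3- cells of WT mice. KO mice were E2Af/fHEBf/f/ER-Cre/Foxp3KI, that is, they carried floxed E2A and HEB alleles and a Cre recombinase that tamoxifen switches on. WT mice were Foxp3KI, so both genotypes shared the Foxp3KI allele, while the WT mice lacked the floxed alleles and ER-Cre. Tamoxifen in corn oil was given by mouth to the animals of both genotypes, 3 mg on each of 4 occasions within 10 days. Age, sex and strain background are not given in the labels, so the deletion, the Cre and any DNA that came with the floxed alleles cannot be told apart. Nothing says that replicate arrays came from separate mice, and the p-values below then measure only the spread between these arrays.

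E2A (gene Tcf3) and HEB (gene Tcf12) belong to the E proteins, factors of the basic helix-loop-helix family that pair with each other and bind the DNA motif CANNTG, called an E-box. Id proteins such as Id3 lack a DNA-binding region and hold E proteins off the DNA, and Id3 is itself induced by T cell receptor signals through Egr factors. E proteins drive early T cell genes and hold thymocytes at the CD4+CD8+ stage until they are selected, and Foxp3 is the factor that marks regulatory T cells.

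Between 11462 and 12540 of 25697 probes were detected per array at a detection p under 0.05, and replicate arrays correlated across probes at r = 0.988 in KO Foxp3+ cells and 0.994 to 0.996 in the other groups. All 8 arrays lay on 1 chip, with the WT arrays on its first positions and the KO arrays on its last, so chip position and genotype cannot be told apart. The Foxp3 probe ILMN_1225330 stood 5.26 log2 units higher in Foxp3+ than in Foxp3- cells (limma adjusted p = 2.91e-07), and the T cell receptor chain genes Cd3d, Cd3e and Cd3g were detected on all 8 arrays. Cd3e and Cd3g were called lower in KO Foxp3- cells, at -0.45 and -0.60 (limma adjusted p = 0.0178 and 0.00871). Cd3d was not called there, at -0.31 (limma adjusted p = 0.0971), nor was any of these genes between genotypes in Foxp3+ cells. The HEB gene Tcf12 was lower in KO by 0.58 in Foxp3+ cells and by 0.50 in Foxp3- cells on the processed scale, just outside the rule, and was called in both fractions by limma (adjusted p = 0.00363 and 0.00387), while no probe of the table was paired with Tcf3. Whether the Tcf12 probe lies in the deleted stretch is not known here. Markers of other cells also differed between the groups. The 4 erythroid marker probes summed, on the linear scale, to 6880 to 9685 in KO Foxp3+ cells, against 5204 to 5490 in WT Foxp3+ cells, and to 2415 to 2716 in KO Foxp3- cells, against 590 to 659 in WT Foxp3- cells. Of 11 probes of NK, NKT and gamma delta T cell genes, 8 were called higher and 1 lower in KO Foxp3- cells (limma), where they summed to 6014 to 6212, against 2728 to 2815 in WT Foxp3- cells. Those probes summed to 2282 to 3470 in KO Foxp3+ cells, against 2989 to 3087 in WT Foxp3+ cells. Of 16 probes of mature single-positive genes, 10 were called higher in KO in the Foxp3- fraction and 2 in the Foxp3+ fraction. Other marker sums were lower in KO Foxp3- cells. Genes of the CD4+CD8+ stage summed to 3360 to 3492 there, against 4453 to 4578 in WT Foxp3- cells, with 1 of 11 probes called lower. In Foxp3+ cells they summed to 3210 to 4195 in KO, against 3125 to 3307 in WT, with 0 called. Immature single-positive genes, the member Itm2a included, summed to 12673 to 12730 in KO Foxp3- cells, against 19619 to 20542 in WT Foxp3- cells. In Foxp3+ cells they summed to 10581 to 11604 in KO, against 9203 to 9849 in WT. Itm2a was the brightest of these probes in WT Foxp3- cells, at 12.83 and 12.99 log2, against 11.39 and 11.52 in KO Foxp3- cells. The sum thus rests in part on values that the rule used and is a description only. Of 5 such probes tested besides the member, 2 were called lower and 1 higher in KO Foxp3- cells (limma). The part of these cells in the members' differences was not tested. Of 9 B cell probes tested, 0 were called between genotypes in either fraction (limma), with 1 higher in KO Foxp3- cells at an unadjusted p under 0.05, and the myeloid markers are given beside the members they bear on.

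**Figure D1:**
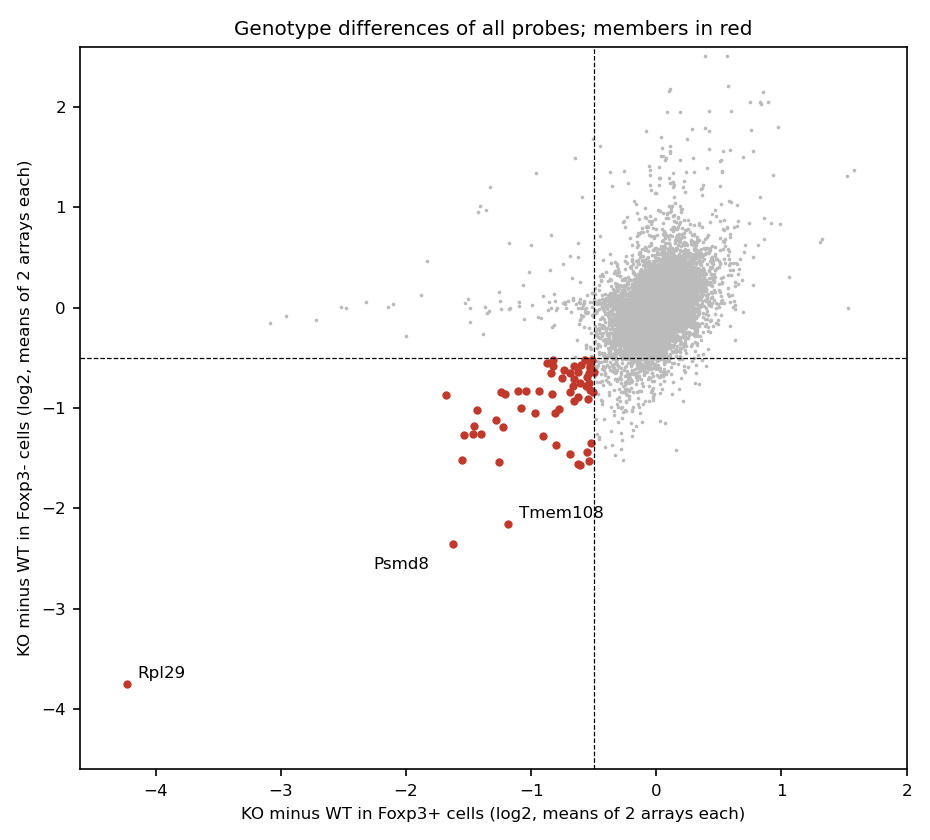
Each point is a probe, with KO minus WT for Foxp3+ cells on the x axis and for Foxp3- cells on the y axis (log2, means of 2 arrays per group); red points are the 59 members, dashed lines mark -0.5, and 5 probes above the axes' range are not drawn. Rpl29 stands alone at -4.23 and -3.76, and most members lie close to the threshold lines.

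The members were spread from the threshold to a drop of more than 13-fold in both fractions. The KO minus WT difference over the 59 probes had a median of -0.75 and a range of -4.23 to -0.50 in Foxp3+ cells, and a median of -0.86 and a range of -3.76 to -0.52 in Foxp3- cells, both on the processed log2 scale. Over all 14942 probes the medians were 0.01 and -0.00. Both KO arrays lay below both WT arrays in each fraction for 57 members. The same held for 10.9% of all probes, but the rule used these contrasts, so the count is a description only. The exceptions were the histone probes of H2ac15 and H2ac7. The rule's probes made up 34.9% of the 169 probes at or below -0.5 in Foxp3+ cells and 14% of the 421 in Foxp3- cells. A drop of at least 1 log2 unit in both fractions was seen for 13 members, of at least 1.5 for 3, and of at least 2 for 1. The difference was larger in Foxp3- cells for 33 members and larger in Foxp3+ cells for 26. A gap of more than 0.5 between the fractions was seen for 9 members of the first kind, the probes of Igf2bp3, Pclaf, H2ac15, H2ac7, Tmem108, Itm2a, Psmd8 and Pvr, and for 1 of the second kind, a Capn2 probe. In bulk RNA, fewer cells that hold a transcript and less of it per cell cannot be told apart.

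Near the threshold, ILMN_2905386 (-0.50 in Foxp3+ and -0.64 in Foxp3- cells), Coro1a (-0.51 and -0.84) and Abcb9 (-0.52 and -0.52) lay just inside. Aste1 (-0.50 and -0.60), Tcf12 (-0.58 and -0.50) and Tcf7l1 (-0.65 and -0.50) lay just outside, each with the smaller drop short of -0.5 before rounding. When the rule was applied to the replicate 1 arrays alone it took 92 probes, and on the replicate 2 arrays 38 of these (41.3%) again passed and 87 lay below 0 in both fractions. Over all probes those shares were 0.455% and 27.7%. Applied to the replicate 2 arrays alone it took 68 probes, of which 38 (55.9%) passed and 57 lay below 0 in both fractions on the replicate 1 arrays, against 0.616% and 29.7% of all probes. Both replicates share genotype, chip order and any DNA that came with the floxed alleles, and they are not known to be separate mice. The shares therefore describe how alike the arrays were and are no test of the members. Every member was detected on both arrays of both WT groups, and 52 were detected on all 8 arrays. Without KO Foxp3+ replicate 2 the rule took 92 probes, 54 of them among the 59. The 2 KO Foxp3+ arrays stood apart from each other on several members below, and which of them departed cannot be told.

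**Figure D2:**
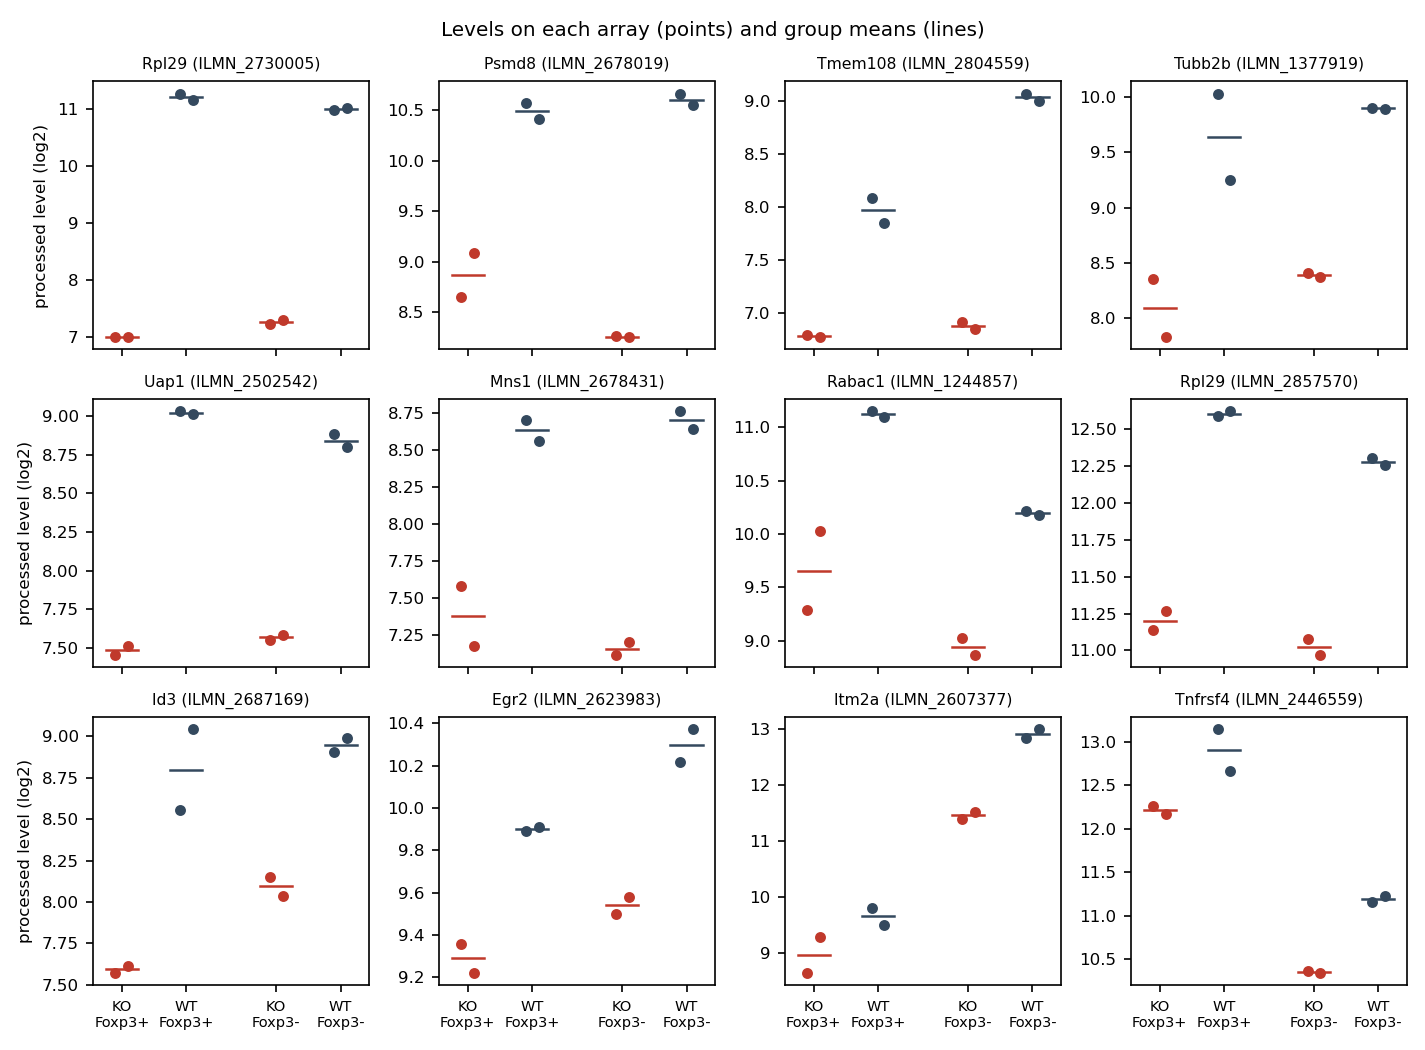
Processed log2 levels of 12 members on every array, with KO in red left of WT in dark blue within each fraction; points are arrays and lines are means of 2. Each panel has its own y axis, and the KO points lie below the WT points of the same fraction in every panel.

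The member with the lowest level in KO relative to WT was a probe of Rpl29, a protein of the large ribosomal subunit. Probe ILMN_2730005 read 7.0 and 6.99 on the KO Foxp3+ arrays, against 11.28 and 11.17 on the WT Foxp3+ arrays, and 7.22 and 7.29 on the KO Foxp3- arrays, against 10.99 and 11.03 on the WT Foxp3- arrays. The genotypes were far apart in both fractions, by 18.8-fold in Foxp3+ cells and 13.5-fold in Foxp3- cells. A different Rpl29 probe, ILMN_2857570, was bright on all arrays, with 11.14 and 11.26 in KO Foxp3+ cells, against 12.59 and 12.62 in WT Foxp3+ cells, and 11.08 and 10.97 in KO Foxp3- cells, against 12.30 and 12.26 in WT Foxp3- cells. Both probes of this gene were thus members, with folds of 2.64 in Foxp3+ and 2.39 in Foxp3- cells for the brighter probe.

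Several further members act in protein synthesis, RNA handling and protein turnover, a group of 13 probes of 10 genes. Psmd8, a subunit of the 26S proteasome's regulatory particle, read 8.65 and 9.09 in KO Foxp3+ cells, against 10.57 and 10.42 in WT Foxp3+ cells, and 8.26 and 8.25 in KO Foxp3- cells, against 10.67 and 10.55 in WT Foxp3- cells. It was 3.09-fold lower in KO in Foxp3+ and 5.11-fold lower in Foxp3- cells, with no overlap of the groups. Capn2, the catalytic subunit of the calcium-dependent protease m-calpain, was read by 2 member probes. ILMN_1219583 had 7.27 and 7.47 in KO Foxp3+ cells, against 9.08 and 9.02 in WT Foxp3+ cells, and 7.75 and 7.59 in KO Foxp3- cells, against 8.49 and 8.59 in WT Foxp3- cells. This was the widest gap towards Foxp3+ cells of any member, 3.21-fold there and 1.83-fold in Foxp3- cells. The other Capn2 member was 2.69-fold and 2.03-fold lower in the same order of fractions. A further Capn2 probe, brighter than these, stood at -0.31 in Foxp3+ and -0.28 in Foxp3- cells (KO minus WT, log2).

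The mitochondrial ribosome contributed Mrpl3, a large-subunit protein whose member probe was 1.71-fold lower in KO in Foxp3+ and 2.02-fold lower in Foxp3- cells. A second, brighter Mrpl3 probe stood at 0.02 in Foxp3+ and -0.09 in Foxp3- cells (KO minus WT, log2). Mrps12, a small-subunit protein, was 1.54-fold and 1.56-fold lower. Srpr, the receptor for the signal recognition particle, was 1.57-fold lower in Foxp3+ and 1.5-fold lower in Foxp3- cells. Igf2bp3, an RNA-binding protein best known from fetal tissue and tumours, was near background in KO. Its probe ILMN_1218913 read 6.99 and 6.85 in KO Foxp3+ cells, against 7.65 and 7.44 in WT Foxp3+ cells, and 6.91 and 6.97 in KO Foxp3- cells, against 8.46 and 8.52 in WT Foxp3- cells. Its other probe, ILMN_1226175, was detected on none of the KO arrays, so its fold is a bound of at least 1.41 in Foxp3+ and at least 2.5 in Foxp3- cells (each WT mean set against the higher of the probe's own KO signal and the dimmest detected signal). Rbm38, an RNA-binding protein induced by p53, Clasrp, a serine- and arginine-rich protein linked to splicing, and Fbxo46, an F-box protein, were between 1.46-fold and 2.07-fold lower. For Rbm38 this was the member probe only, and its brighter further probes stood between -0.23 and -0.02 (KO minus WT, log2).

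Among genes known from T cell signalling, Id3, Egr2, Itm2a, Tnfrsf4, Pvr, Dusp7 and Coro1a gave a probe each. Id3, the E protein inhibitor, read 7.57 and 7.61 in KO Foxp3+ cells, against 8.55 and 9.04 in WT Foxp3+ cells, and 8.15 and 8.03 in KO Foxp3- cells, against 8.91 and 8.99 in WT Foxp3- cells. The KO arrays were the lower in each fraction, by 2.31-fold in Foxp3+ and 1.81-fold in Foxp3- cells. Its relative Id2 was not called between genotypes at ILMN_1228557, with KO minus WT at 0.24 in Foxp3+ (limma adjusted p = 0.478) and 0.55 in Foxp3- cells (limma adjusted p = 0.0567). Egr2, a zinc finger factor induced by T cell receptor signals, had 9.36 and 9.22 in KO Foxp3+ cells, against 9.89 and 9.91 in WT Foxp3+ cells, and 9.5 and 9.58 in KO Foxp3- cells, against 10.22 and 10.37 in WT Foxp3- cells. The Egr2 groups did not overlap, and the folds were 1.53 and 1.69.

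Itm2a, a membrane protein that rises in thymocytes during positive selection, was the member with the widest range of levels. It read 8.65 and 9.29 in KO Foxp3+ cells, against 9.81 and 9.51 in WT Foxp3+ cells, and 11.39 and 11.52 in KO Foxp3- cells, against 12.83 and 12.99 in WT Foxp3- cells. Tnfrsf4, the costimulatory receptor OX40 that regulatory T cells carry, had 12.26 and 12.17 in KO Foxp3+ cells, against 13.15 and 12.67 in WT Foxp3+ cells, and 10.37 and 10.35 in KO Foxp3- cells, against 11.16 and 11.23 in WT Foxp3- cells. Itm2a was thus lower in KO by 1.61-fold in Foxp3+ and 2.74-fold in Foxp3- cells, and Tnfrsf4 by 1.61-fold and 1.79-fold. Tnfrsf4 was the only member from a list of regulatory T cell genes, of which 36 further probes were tested: 17 were called higher and 4 lower in KO Foxp3- cells, and 1 higher and 2 lower in KO Foxp3+ cells (limma), with list medians of 0.40 and 0.07 on the background-corrected scale, Tnfrsf4 included. Pvr, a ligand of the receptors DNAM-1 and TIGIT, was 1.74-fold and 2.57-fold lower. Dusp7, a phosphatase of ERK kinases, and Coro1a, an actin-binding protein that T cells need for survival, stood between 1.42-fold and 1.79-fold lower. For Coro1a this was the member probe only, and its other probes stood between -0.13 and 0.04 (KO minus WT, log2).

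Id3 and Egr2 belong to a list of genes tied to E proteins in thymocytes, of which 40 further probes were tested. In Foxp3+ cells 1 of these 40 was called lower in KO, Socs3, and 3 were called higher, Cxcr4 and 2 of the 3 Il7r probes (limma, adjusted p under 0.05). For all probes tested, 3.87% were called in Foxp3+ cells, 2.4% lower and 1.47% higher in KO. In Foxp3- cells 9 of the 40 were called lower and 9 higher, against 10.9% and 10.3% of all probes, 21.2% in all. These percentages do not bear on the members, since the rule used the same contrasts. Cxcr4, a chemokine receptor of immature thymocytes, was higher in KO by 0.99 in Foxp3+ (limma adjusted p = 0.00278) and by 1.48 in Foxp3- cells (limma adjusted p = 1.59e-04) on the background-corrected log2 scale. Socs3, a cytokine signalling inhibitor, was called in both fractions in opposite directions, lower in KO Foxp3+ cells and higher by 1.58 in KO Foxp3- cells. Egr1, an early response factor related to Egr2, was called lower in Foxp3- cells at -0.65 (limma adjusted p = 0.00516) and stood at 0.23 in Foxp3+ cells (limma adjusted p = 0.279). The number of all probes called in Foxp3+ cells, 523, moved with single arrays: it was 165 and 199 when WT Foxp3+ replicates 1 and 2 were left out, 322 when either WT Foxp3- array was, and 1039 when KO Foxp3+ replicate 2 was. In Foxp3- cells, where 2865 probes were called, leaving out a KO Foxp3- array gave 1310 or 1416 and leaving out a WT Foxp3- array 1115 or 1342.

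The DNA next to these genes was read for E-boxes. RefSeq promoter windows of build GRCm38.p6, running from 250 bases before to 50 bases after the start, were found for 45 of the 50 member genes. CANNTG, which reads the same on both strands, was present in 32 of them (71.1%), against 64.3% of the windows of 8218 genes of the processed table and 72.1% of 27025 windows in all. The form CAGCTG, searched in either orientation and contained in CANNTG, was in 15.6% of the members' windows and 15% of the table's. CACCTG, also contained in CANNTG, was in 22.2% and 17.6%. The window with the most E-boxes among the members belonged to Psmd8, with 5, while Id3, though a member, had 0. These windows are shown with those of Egr2, Itm2a and Parp3, which have 1 each, since they span the members' range. Capitals mark CANNTG, and each sequence runs 5' to 3' on the gene's strand.
Psmd8 (chr7:29180624-29180923, minus strand): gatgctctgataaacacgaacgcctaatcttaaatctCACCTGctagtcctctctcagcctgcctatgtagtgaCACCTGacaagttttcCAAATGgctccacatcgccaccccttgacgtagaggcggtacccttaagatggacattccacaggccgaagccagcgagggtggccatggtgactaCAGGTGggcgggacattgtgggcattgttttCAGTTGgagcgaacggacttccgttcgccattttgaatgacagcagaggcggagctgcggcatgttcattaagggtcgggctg
Parp3 (chr9:106476900-106477199, minus strand): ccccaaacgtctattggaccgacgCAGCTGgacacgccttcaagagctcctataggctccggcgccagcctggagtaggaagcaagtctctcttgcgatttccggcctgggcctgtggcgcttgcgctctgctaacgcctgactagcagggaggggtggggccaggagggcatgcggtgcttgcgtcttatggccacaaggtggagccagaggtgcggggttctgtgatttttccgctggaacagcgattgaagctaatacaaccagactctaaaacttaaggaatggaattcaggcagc
Itm2a (chrX:107403311-107403610, minus strand): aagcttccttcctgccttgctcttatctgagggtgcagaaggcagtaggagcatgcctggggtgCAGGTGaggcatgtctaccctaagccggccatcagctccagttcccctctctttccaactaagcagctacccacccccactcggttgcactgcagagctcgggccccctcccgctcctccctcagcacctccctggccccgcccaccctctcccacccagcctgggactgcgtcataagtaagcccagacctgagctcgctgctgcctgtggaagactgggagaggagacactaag
Egr2 (chr10:67535249-67535548, plus strand): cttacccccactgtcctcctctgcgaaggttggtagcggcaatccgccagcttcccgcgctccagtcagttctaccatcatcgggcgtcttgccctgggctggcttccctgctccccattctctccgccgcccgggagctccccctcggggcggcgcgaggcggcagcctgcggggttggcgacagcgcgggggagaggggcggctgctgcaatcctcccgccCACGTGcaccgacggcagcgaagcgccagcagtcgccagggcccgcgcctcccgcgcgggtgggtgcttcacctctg
Id3 (chr4:136143572-136143871, plus strand): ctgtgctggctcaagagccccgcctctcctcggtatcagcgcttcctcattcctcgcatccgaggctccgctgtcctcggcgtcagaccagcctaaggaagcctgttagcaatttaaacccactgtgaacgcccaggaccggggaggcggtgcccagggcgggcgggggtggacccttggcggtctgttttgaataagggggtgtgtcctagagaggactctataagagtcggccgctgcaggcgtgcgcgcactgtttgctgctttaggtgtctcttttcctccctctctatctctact
In the Psmd8 window 3 of the 5 E-boxes have the CACCTG form on either strand, the Itm2a window holds that form once, Parp3 holds CAGCTG and Egr2 holds CACGTG. A match is a description of the letters, and binding was not measured here.

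Genes of chromatin, DNA and cell division made up 11 member probes of 9 genes. Hmgn3, a nucleosome-binding protein, was read by 2 probes that were both members. ILMN_1247704 had 8.29 and 8.25 in KO Foxp3+ cells, against 9.68 and 9.43 in WT Foxp3+ cells, and 7.59 and 7.77 in KO Foxp3- cells, against 8.84 and 8.75 in WT Foxp3- cells. The groups were apart by 2.43-fold and 2.17-fold, and for the other Hmgn3 probe by 2.36-fold and 1.79-fold. Parp3, an ADP-ribosyltransferase of DNA break repair, had 7.54 and 7.41 in KO Foxp3+ cells, against 8.72 and 8.67 in WT Foxp3+ cells, and 7.73 and 7.70 in KO Foxp3- cells, against 8.89 and 8.90 in WT Foxp3- cells. It was 2.33-fold and 2.28-fold lower in KO.

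Pclaf, a partner of the replication clamp PCNA in dividing cells, was detected on none of the KO arrays. It read 6.84 and 6.80 in KO Foxp3+ cells, against 7.49 and 7.37 in WT Foxp3+ cells, and 6.76 and 6.83 in KO Foxp3- cells, against 8.27 and 8.45 in WT Foxp3- cells. Its fold was at least 1.44 in Foxp3+ and at least 2.69 in Foxp3- cells. The histone H2A gene H2ac15 had 10.59 and 9.63 in KO Foxp3+ cells, against 10.83 and 10.46 in WT Foxp3+ cells, so these groups overlapped, and 10.23 and 10.04 in KO Foxp3- cells, against 11.65 and 11.68 in WT Foxp3- cells, where they did not. H2ac7, also an H2A gene, followed the same order on the arrays, with folds of 1.44 and 2.54. H2A genes are close copies of each other, and Rpl29 and Tubb2b likewise have close relatives, so which copies their probes read was not tested.

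E2f2, a transcription factor of the cell cycle, was read by 2 member probes that were 1.68-fold and 1.77-fold lower in Foxp3+ and 1.63-fold and 1.43-fold lower in Foxp3- cells. Rbbp7, a histone-binding subunit of chromatin complexes, Hmgb2, a DNA-bending protein, and Nsmce1, a subunit of the SMC5/6 complex, were between 1.44-fold and 1.88-fold lower. A list of 34 tested probes of other cell cycle genes, none of them members, was set beside these. In Foxp3- cells 19 of the 34 were called lower in KO and 1 higher (limma), against 10.9% and 10.3% of all probes, with a median of -0.48. In Foxp3+ cells 0 were called lower and 2 higher, Cdkn1a and Ccne1, with a median of -0.23, and at an unadjusted p under 0.05 (limma) 11 were lower and 4 higher. Top2a, which untangles replicated DNA, was at -2.25 in Foxp3- (limma adjusted p = 0.00244) and -0.58 in Foxp3+ cells (limma adjusted p = 0.345).

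Metabolic enzymes gave 7 probes of 7 genes. Uap1, which makes UDP-N-acetylglucosamine for glycosylation, had 7.46 and 7.52 in KO Foxp3+ cells, against 9.03 and 9.02 in WT Foxp3+ cells, and 7.56 and 7.59 in KO Foxp3- cells, against 8.88 and 8.80 in WT Foxp3- cells. It was 2.9-fold lower in KO in Foxp3+ and 2.41-fold lower in Foxp3- cells. Pkm, the pyruvate kinase that ends glycolysis, had 10.75 and 10.26 in KO Foxp3+ cells, against 11.36 and 11.46 in WT Foxp3+ cells, and 10.65 and 10.59 in KO Foxp3- cells, against 11.91 and 11.88 in WT Foxp3- cells. Its groups were apart by 1.88-fold and 2.42-fold. Abhd14b, a protein of the alpha/beta hydrolase fold, was 2.74-fold and 2.27-fold lower. Adpgk, an ADP-dependent glucokinase, Psat1, an enzyme of serine synthesis, Nudt6, a Nudix family protein, and Gsto1, a glutathione transferase of the omega class, were between 1.45-fold and 1.77-fold lower.

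The largest group, 17 probes of 15 genes, act at membranes, in transport, in adhesion or in the cytoskeleton. Tmem108, a transmembrane protein studied mainly in neurons, was detected on none of the KO arrays. It had 6.80 and 6.77 in KO Foxp3+ cells, against 8.08 and 7.85 in WT Foxp3+ cells, and 6.91 and 6.85 in KO Foxp3- cells, against 9.07 and 9.0 in WT Foxp3- cells. Its fold was at least 2.09 in Foxp3+ and at least 4.29 in Foxp3- cells on the processed scale, and at least 6.04 and 15.5 after background correction. Tubb2b, a beta-tubulin, was read by 2 member probes, and ILMN_1377919 had 8.35 and 7.82 in KO Foxp3+ cells, against 10.03 and 9.25 in WT Foxp3+ cells, and 8.41 and 8.37 in KO Foxp3- cells, against 9.91 and 9.90 in WT Foxp3- cells. That probe was 2.94-fold and 2.86-fold lower in KO, and the other member 2.11-fold and 2-fold. Further Tubb2b probes, near background and detected on 5 or 6 arrays, stood between -0.25 and -0.16 (KO minus WT, log2).

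Rabac1, an adaptor of Rab proteins at the Golgi, read 9.29 and 10.03 in KO Foxp3+ cells, against 11.15 and 11.10 in WT Foxp3+ cells, and 9.02 and 8.86 in KO Foxp3- cells, against 10.21 and 10.18 in WT Foxp3- cells. The KO Foxp3+ arrays lay apart from each other but below both WT arrays. Mns1, a protein of cilia and sperm tails, had 7.58 and 7.17 in KO Foxp3+ cells, against 8.70 and 8.56 in WT Foxp3+ cells, and 7.12 and 7.20 in KO Foxp3- cells, against 8.76 and 8.64 in WT Foxp3- cells. Its folds were 2.38 and 2.91, and those of Rabac1 2.77 and 2.38. A second, brighter Rabac1 probe stood at -0.55 in Foxp3+ and 0.13 in Foxp3- cells (KO minus WT, log2). Cldn10, a tight junction protein, was lower at both of its member probes, by 1.96-fold and 2.07-fold at ILMN_2515816 and by 1.59-fold and 1.72-fold at ILMN_1214954. Atp2c1, the calcium and manganese pump of the Golgi, was 1.79-fold lower in Foxp3+ cells, where only 1 of the 2 KO arrays detected it. Undetected on both KO Foxp3- arrays, it was at least 1.79-fold lower in Foxp3- cells. A second Atp2c1 probe, dim but detected on all 8 arrays, stood at -0.09 in Foxp3+ and -0.07 in Foxp3- cells (KO minus WT, log2). Slc15a2, a peptide transporter, Abcb9, a lysosomal peptide transporter, Cln3, a lysosomal membrane protein, Gnas, the stimulatory G protein alpha subunit, Vangl2, a planar cell polarity protein, and Lad1, an anchoring filament protein, were between 1.43-fold and 1.85-fold lower.

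Plac8, F13a1 and Apobr are also expressed in myeloid cells, and markers of those cells differed between genotypes in the Foxp3+ fraction. Plac8 had 9.64 and 8.59 in KO Foxp3+ cells, against 10.24 and 10.21 in WT Foxp3+ cells, and 7.86 and 7.88 in KO Foxp3- cells, against 8.79 and 8.60 in WT Foxp3- cells. F13a1, the A subunit of coagulation factor XIII, had 7.26 and 7.03 in KO Foxp3+ cells, against 7.98 and 8.19 in WT Foxp3+ cells, and 7.90 and 7.88 in KO Foxp3- cells, against 8.79 and 8.64 in WT Foxp3- cells. Apobr, a receptor that takes up lipoproteins in macrophages, was 2.05-fold lower in KO in Foxp3+ and 1.78-fold lower in Foxp3- cells. Of 16 myeloid marker probes tested, 9 were called lower and 0 higher in KO Foxp3+ cells, and 0 lower and 2 higher in KO Foxp3- cells (limma). At an unadjusted p under 0.05 (limma) these counts were 14 and 0 in Foxp3+ and 0 and 4 in Foxp3- cells. The marker sum on the linear scale was 8052 to 8445 in KO Foxp3+ cells, against 24900 to 26811 in WT Foxp3+ cells, and 3664 to 3693 in KO Foxp3- cells, against 3452 to 3530 in WT Foxp3- cells. Lyz2 and Cd14 had probes in this sum, while Itgam, Itgax and Csf1r had no named probe in the table. The sum was thus lower in KO in the Foxp3+ fraction and slightly higher in KO in the Foxp3- fraction, while the 3 members were lower in both; its part in the Foxp3+ differences was not tested. Erdr1, an erythroid differentiation regulator, Zfp235, a zinc finger protein, and the unnamed probes made up the rest, between 1.41-fold and 1.91-fold lower.

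**Figure D3:**
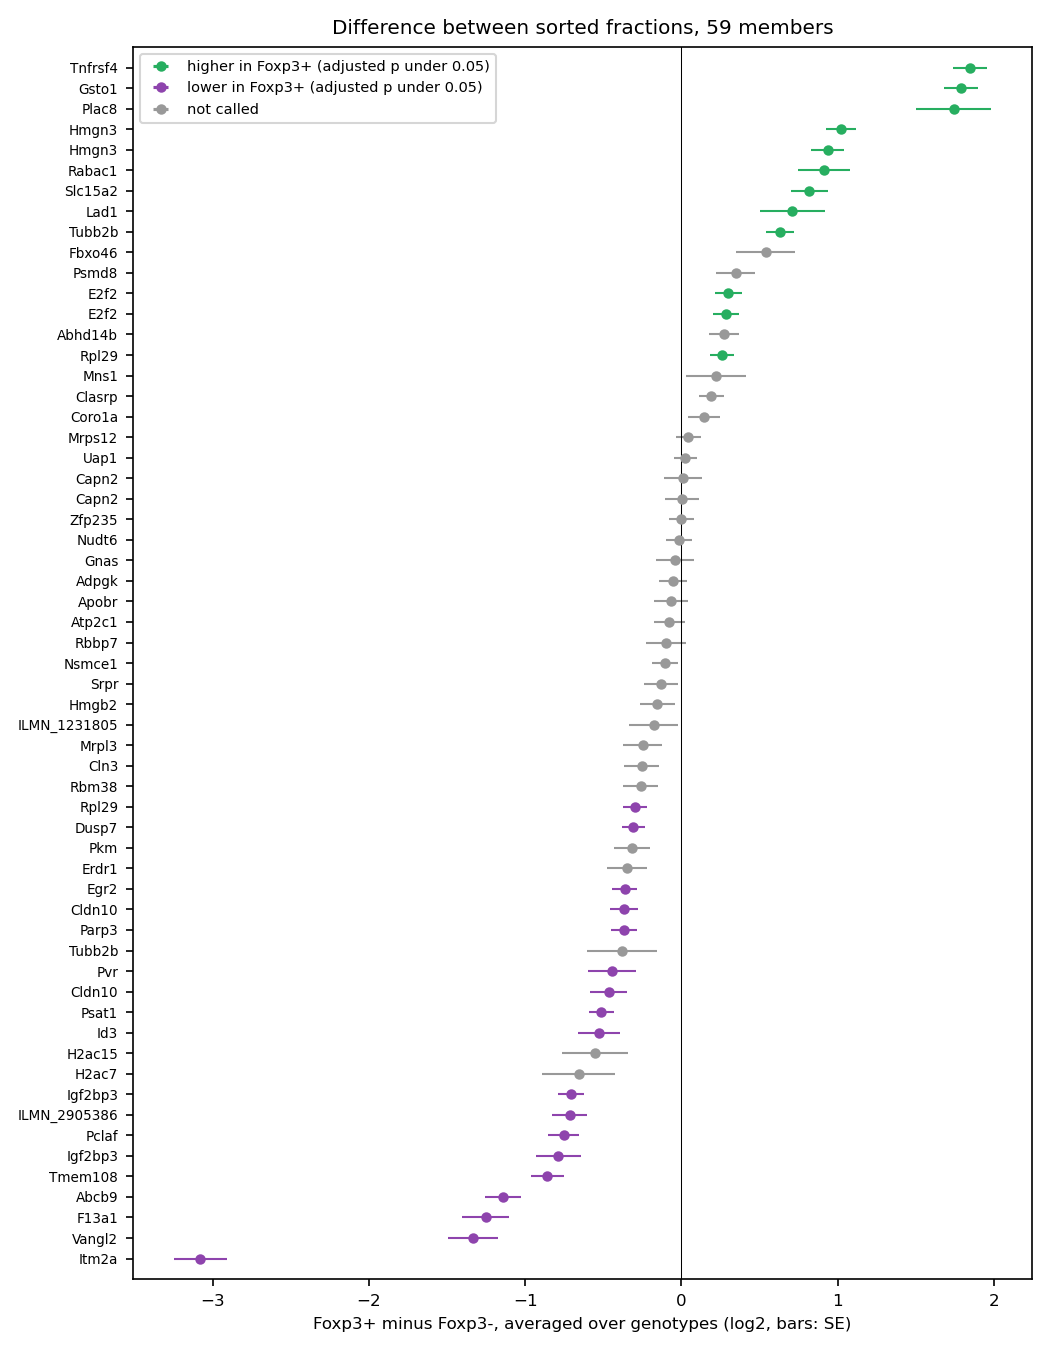
Foxp3+ minus Foxp3- difference averaged over genotypes for each of the 59 members (x axis, log2 of background-corrected values; bars are standard errors from limma, 8 arrays), ordered from highest to lowest. The 12 green members were called higher in Foxp3+ cells, the 18 purple ones lower, and the grey ones were not called.

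The rule compared genotypes within each fraction, so the difference between fractions averaged over genotypes was left free to be tested where a member was above background in KO. Tmem108, Pclaf and both Igf2bp3 probes were near background there. Their averaged difference followed the WT arrays alone, and so the gap between the rule's own contrasts. Their lower calls, counted below, are therefore no test. By limma on background-corrected values, 30 of the 59 members (50.8%) were called at an adjusted p under 0.05, against 40.1% of the 13526 probes tested. Of these, 12 (20.3%) were higher in Foxp3+ cells and 18 (30.5%) lower, against 18.4% and 21.8% of all probes. A called difference of 2-fold or more was seen for 4 of the 59 members higher in Foxp3+ cells and 4 of the 59 lower. Over the 13526 probes these were 627 (4.64%) and 272 (2.01%). The median difference over members was -0.10 and that over all probes -0.06. Members were also brighter, with a median processed level of 8.66, against 7.58 over the whole processed table. The shares were not adjusted for level. The split moved with the scaling, with 10 of 36 called members higher under median scaling and 16 of 32 under cyclic loess. Over all probes 2483 of 5430 calls were higher, 1855 of 5792 under median scaling and 2885 of 5148 under cyclic loess.

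Members stood on either side of this comparison, as did markers of other cells. Called higher in Foxp3+ cells (limma) were 15 of 16 myeloid marker probes, 4 of 4 erythroid and 6 of 9 B cell probes, while 9 of 11 NK, NKT and gamma delta T cell probes were called lower; their part in the members' differences was not tested. Tnfrsf4 stood 1.85 ± 0.11 log2 units higher in Foxp3+ than in Foxp3- cells (SE; limma adjusted p = 8.45e-06), Gsto1 1.79 ± 0.11 (limma adjusted p = 8.48e-06) and Plac8 1.74 ± 0.24 (limma adjusted p = 7.89e-04). Hmgn3 followed at 1.02 ± 0.10 and 0.94 ± 0.11 for its 2 probes, and Rabac1, Slc15a2, Lad1 and a Tubb2b probe lay between 0.63 and 0.91. In the other direction Itm2a was lower in Foxp3+ cells, at -3.08 ± 0.17 (limma adjusted p = 5.27e-06). Vangl2 was at -1.33 ± 0.16, F13a1 at -1.25 ± 0.15 and Abcb9 at -1.14 ± 0.11, each called. Of the members just named, Tnfrsf4, Gsto1, Itm2a and Abcb9 had all 4 Foxp3+ arrays on the same side of all 4 Foxp3- arrays. The share of all probes that do so was not counted, so this describes their levels only. Tmem108, Pclaf and both Igf2bp3 probes, 4 of the 18 lower calls, rested on the WT arrays, since they were detected on 0 KO arrays, or on 1 per fraction for ILMN_1218913. On the processed scale their Foxp3+ minus Foxp3- differences were -0.09 to 0.03 in KO and -1.07 to -0.86 in WT cells. Id3 was called lower at -0.53 ± 0.14 (limma adjusted p = 0.0157) and Egr2 at -0.36 ± 0.08 (limma adjusted p = 0.00844). The probes of a gene did not always go together: the dimmer Rpl29 probe was at -0.30 ± 0.08 and the brighter at 0.26 ± 0.07, both called. Capn2 was at 0.01 ± 0.12 and 0.01 ± 0.11 for its 2 probes, and Uap1 at 0.02 ± 0.07. The Id3, Pvr, Lad1 and Rpl29 calls were lost when some single arrays were left out. Without them, Id3 ranged over -0.68 to -0.37, Pvr over -0.63 to -0.26, Lad1 over 0.47 to 0.95, and the Rpl29 probes over -0.34 to -0.26 and 0.23 to 0.29.

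**Figure D4:**
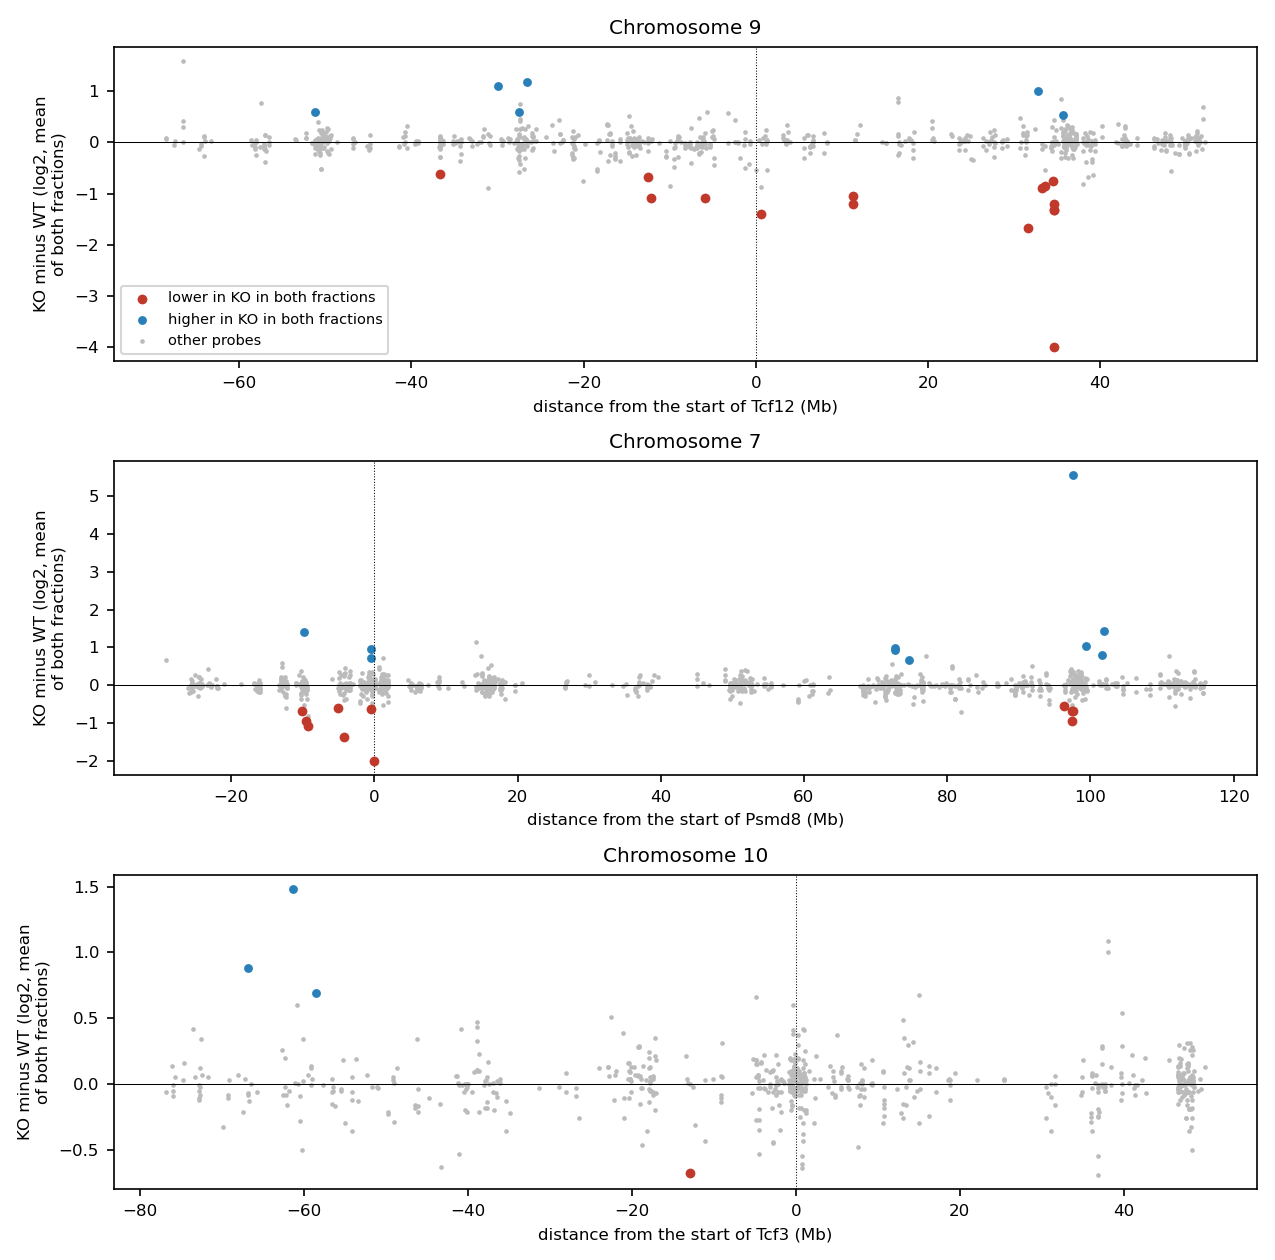
KO minus WT difference (y axis, log2, mean of both fractions) against distance in Mb from the start of Tcf12 on chromosome 9, Psmd8 on chromosome 7 and Tcf3 on chromosome 10; red points are members, blue points are probes higher in both fractions and grey points are all other named probes. Chromosome 9 has 15 red points and chromosome 10 has 1.

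The members were not spread evenly over the chromosomes. Chromosome 9, which carries Tcf12, held 15 of the 57 named members (26.3%), of 13 genes, against 5.53% of the table's named probes. Chromosome 7 held 11 (19.3%), of 11 genes, against 7.92% of the probes. The 61 probes that were higher in KO by at least 0.5 in both fractions had 10.5% on chromosome 9 and 17.5% on chromosome 7. No member lay on chromosomes 11, 12, 15, 17, 18 or Y, and Egr2 was the only member on chromosome 10, which carries Tcf3. Neighbouring probes can share a transcript or a stretch of DNA, so these shares are given with no test.

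On chromosome 9, counted in steps of 10 Mb from the start of Tcf12, 8 members lay 30 to 40 Mb towards higher coordinates, among 144 probes. They were Tmem108, Mrpl3, Atp2c1, Dusp7, Abhd14b, Parp3 and both Rpl29 probes. In that stretch 16 of the 137 tested probes (11.7%) were called lower and 2.92% higher in KO Foxp3+ cells (limma), against 2.4% and 1.47% of all probes, a count that includes the members themselves. In Foxp3- cells 13.9% were called lower and 17.5% higher, against 10.9% and 10.3%. The stretch was named for its 8 members, and the rule used both contrasts, so these shares are a description only. Dusp7, Rpl29, Abhd14b and Parp3 are consecutive among the member genes, with 0.060, 0.019 and 0.023 Mb between their starts. Mns1 lay 0.59 Mb from Tcf12 on the side of higher coordinates and Pclaf 5.95 Mb from it on the other side. The Hmgn3 probes lay 10 to 20 Mb away towards higher coordinates, and Adpgk and Pkm, 0.365 Mb apart, 10 to 20 Mb towards lower ones.

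On chromosome 7, Psmd8 and Mrps12 lay 0.435 Mb apart, Fbxo46 and Clasrp 0.461 Mb, Clasrp and Pvr 0.323 Mb, Cln3 and Apobr 0.014 Mb, and Apobr and Coro1a 0.115 Mb. On chromosome 4, Id3 and E2f2 were 0.028 Mb apart. Of the 50 member genes, 20 (40%) had the start of another member gene within 1 Mb and 28 (56%) within 2 Mb. Of the 52 genes of the probes higher in both fractions, 6 (11.5%) and 10 (19.2%) had another of their own set within these distances. The members' stretches also held probes of that higher set. Cpne4 and Rassf1 lay 30 to 40 Mb from Tcf12 on chromosome 9. On chromosome 7, Nfkbib, Fbxo27 and Fosb lay within 10 Mb of Psmd8. Gdpd3, higher by 5.92 in Foxp3+ and 5.15 in Foxp3- cells, lay 97.59 Mb from Psmd8, beside Coro1a at 97.53 Mb. Distances are from RefSeq gene starts, and the steps and the genes they were counted from were chosen after the values were seen.

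**Figure D5:**
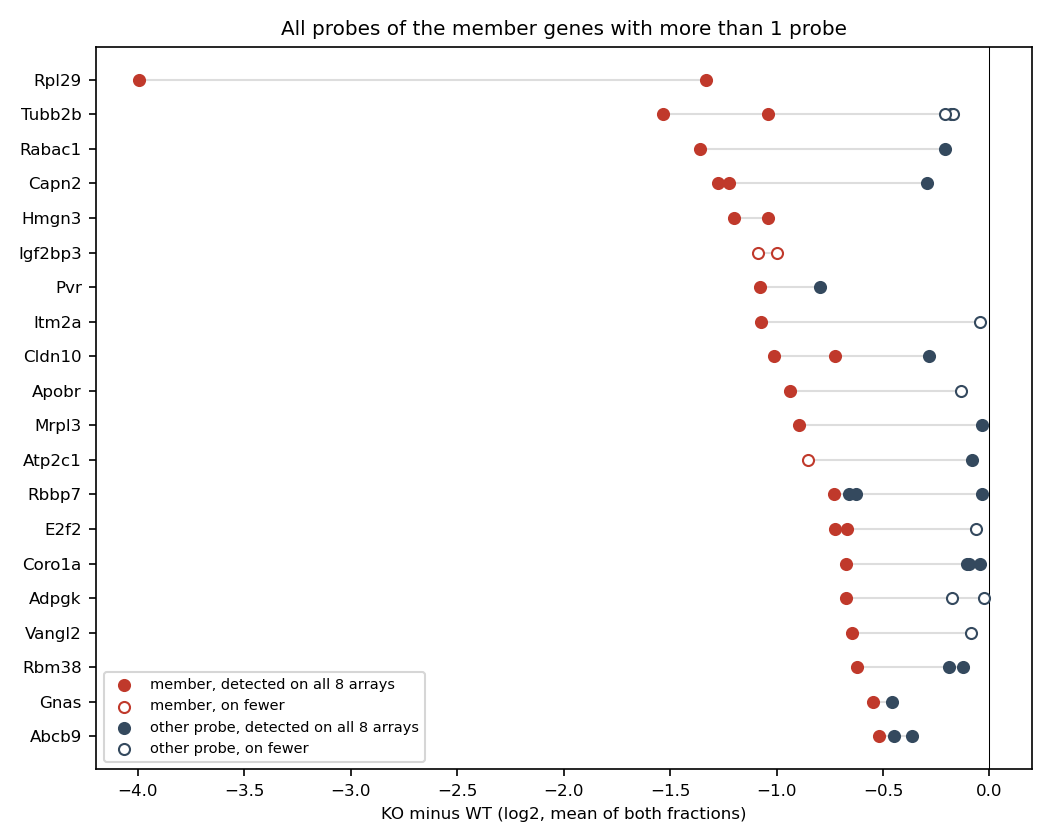
KO minus WT difference (x axis, log2, mean of both fractions) of every probe of the 20 member genes with more than 1 probe; red circles are members, dark circles other probes, and open circles were detected on fewer than 8 arrays. For Coro1a and Mrpl3 the other probes lie close to 0.

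Other probes of the member genes gave a further reading. The table held more than 1 probe for 20 of the 50 genes. All probes were members for 3 of them, Rpl29, Hmgn3 and Igf2bp3, and the other 17 genes had 26 further probes. These 26 had a median KO minus WT difference of -0.17 in Foxp3+ and -0.14 in Foxp3- cells. Of the 26, 5 were at or below -0.3 in both fractions, 2 of Rbbp7 and 1 each of Pvr, Gnas and Abcb9. The second Pvr probe was at -0.48 and -1.11, beside -0.80 and -1.36 for the member. The further Gnas probe was at -0.46 and -0.46.

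A difference within 0.3 of 0 in both fractions was read by 17 of the 26, of which 8 were detected on all 8 arrays. Coro1a was the clearest case: its 3 further probes, at mean levels of 12.06, 13.66 and 13.89, stood between -0.13 and -0.07 in Foxp3+ and between -0.12 and 0.04 in Foxp3- cells, while the member, at 12.13, stood at -0.51 and -0.84. A second Mrpl3 probe, at a level of 9.66, stood at 0.02 and -0.09, while the member stood at -0.78 and -1.01. A second Atp2c1 probe, dim at 7.06 but detected on all 8 arrays, stood at -0.09 and -0.07. The Atp2c1 member, detected on 5 arrays, stood at -0.84 and -0.86. The further Rbm38 probes, at 11.28 and 10.90, were both at -0.23 in Foxp3+ cells and at -0.15 and -0.02 in Foxp3- cells. Rabac1 differed by fraction, where the second probe read -0.55 in the Foxp3+ fraction and 0.13 in the Foxp3- fraction, beside -1.47 and -1.25 for the member. The third Capn2 probe was at -0.31 and -0.28. The single further probes of Itm2a, E2f2 and Vangl2 were detected on at most 2 arrays, so they give no reading of those genes. For 30 member genes the table held 1 probe each, and which transcripts or sequence variants a probe reads was not tested.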

How the data were processed

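RNA of sorted thymic T cells was amplified, labelled with biotin and hybridised to Illumina bead arrays, per the labels. The authors deposited a table of linear intensities for 25697 probes that was not normalized between arrays, with a detection p-value beside each. The authors also deposited processed log2 values for 14942 probes. These matched quantile-normalized log2 intensities, taken with no background removed, to within 0.000675. The submitters' processing notes name GenomeStudio 2011.1 without its settings.

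Members were chosen, and their levels given, on the processed log2 values. The tests used neqc in limma 3.58.1 under R 4.3.3 (normexp background with the negative controls inferred from the detection p-values, an offset of 16, quantile normalization). A probe was tested if its detection p was under 0.05 on 2 or more arrays, as it was for 13526 probes and for all 59 members. Then 4 group means were fitted to all 8 arrays with eBayes, two-sided, with Benjamini-Hochberg adjustment over all probes kept. Each probe had 4 residual and 4.00 prior degrees of freedom. The number of arrays limits the precision, and 2 arrays against 2 cannot give an exact permutation p below 0.333. The fit was tested on simulated data.

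Probes were named from GEO's platform annotation: 14017 of the table's probes had 1 gene, 0 several and 925 none listed. Neighbours came from RefSeq gene starts. The members, the gene lists and the roles were chosen with earlier results of these data known. Beside the genes of the deletion and their relatives, the rule for names took the 20 members with the lowest mean difference, the 8 highest and 8 lowest between fractions, those in a gene list, those at the threshold and those with the widest and smallest gaps between fractions (limma calls or processed values); the remaining members are named to account for every probe. Same-numbered replicates of different groups did not deviate together (r of -0.03 to 0.10). With so few arrays per group this cannot exclude pairing, so whether the numbers pair the arrays is not known.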

Additional observations from a re-analysis of the deposited data

Results flagged for a closer look

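For 5 members the difference between fractions ran one way on every KO array and the opposite way on every WT array. The difference between the genotypes was not tested, and since it equals the gap between the contrasts that chose the members, it is given as values only, on the processed log2 scale. The Foxp3+ minus Foxp3- difference of Rpl29 (ILMN_2730005) was -0.26 in KO and 0.21 in WT. For Capn2 (ILMN_1219583) it was -0.30 in KO and 0.51 in WT, the widest of the 5. Uap1 stood at -0.09 in KO and 0.18 in WT, and Apobr at -0.09 and 0.12. Zfp235, in the reverse direction, stood at 0.04 in KO and -0.08 in WT. No group had enough arrays for a check of single outlying arrays.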

How the results depend on the processing

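The member count of 59 rested on the scale: background-corrected values gave 215 probes, which included all 59, while median scaling gave 61 and cyclic loess 57. A threshold of -1 gave 13, and leaving out single arrays gave 52 to 92. The median KO minus WT difference was -1.28 in Foxp3+ and -1.36 in Foxp3- cells on background-corrected values and -0.87 in Foxp3- cells under median scaling; without single arrays it ran from -0.82 to -0.77 in Foxp3+ and -0.91 to -0.85 in Foxp3- cells. Between fractions, 23 to 38 members were called over all alternatives, 33 of them with the replicate block, and 23 to 37 without single arrays; probes called then ran from 4096 to 5574. With the replicate block 5260 probes were called between fractions, 2610 between genotypes in Foxp3- cells and 420 in Foxp3+ cells. Whether the replicate numbers pair the arrays is not known. The genotype count in Foxp3+ cells was 978 on the authors' values, 330 with array weights and 962 with a variance trend, and 165 to 1039 without single arrays; in Foxp3- cells it was 1115 to 3608. The cause of these moves was not tested. E-boxes were present in 73.3% of the members' genes when any start was allowed, against 68.7% of the processed table's genes, an alternative chosen after seeing the data. For the 36 named members, 525 of 576 alternative values kept direction and call, 28 lost the call, 23 gained it and 0 reversed. Probes near background have compressed folds on the processed scale, and 2 arrays per group limit every comparison.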
